A study of Rattus norvegicus with 6 samples.

Results

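The rat genes encoding enzymes that write and erase marks on histones and DNA were followed in primary cells of the temporomandibular joint (TMJ) disc, the fibrous pad between the bones of the jaw joint. The genes were chosen by symbol, and the symbols use no expression value, but earlier results of these data were known. They are the DNA methyltransferases, the TET dioxygenases, the UHRF proteins, and the histone lysine methyltransferases named Kmt, Setd, Ezh and Suv39h. Further members are the lysine demethylases named Kdm with number and letter, the lysine acetyltransferases named Kat, and the deacetylases named Hdac and Sirt. Kdm8, whose symbol has no letter after the number, was thus left out. The symbols matched 71 of the 20675 genes listed. The study compared 3 libraries of disc cells exposed for 24 h to GSK101, which opens the calcium-conducting channel TRPV4, with 3 libraries of disc cells given the solvent DMSO over the same time. No genotype, strain, sex, age or GSK101 dose was given in the sources used here, and neither was whether the replicate libraries came from separate animals or cultures. All p-values thus rest on the spread among these 6 libraries, some of which may be technical.

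Expression was given as RPKM, a read number scaled to the gene's annotated length and to the reads counted in the library. Levels of different genes can be set beside each other only as far as those annotated lengths are complete. Each library held between 43061102 and 45705238 counted reads. Testing required an RPKM of 0.5 or more in 3 or more libraries. Genes are called higher or lower where limma's p, adjusted by Benjamini and Hochberg's method over all 12801 tested genes, was under 0.05. Fold changes are ratios of mean RPKM with GSK101 over control, and log2 fold changes, with standard errors (SE), are differences in mean log2(RPKM + 0.5), a scale that understates the change of genes with low levels.

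Chromatin enzymes act as writers, erasers and, with their partner proteins, readers of chemical marks. Methyl groups on CpG cytosines are copied onto each new DNA strand by DNMT1, which UHRF1 brings to hemimethylated DNA, while TET enzymes oxidise them. On histones, lysine methylation can mark active promoters (histone H3 lysine 4), transcribed gene bodies (H3 lysine 36) or silenced genes (H3 lysines 9 and 27), and acetylation generally accompanies open chromatin. Several of these enzymes depend on metabolites: methyltransferases use S-adenosylmethionine, acetyltransferases use acetyl-CoA, sirtuins use NAD+, and the TET and Jumonji enzymes use oxygen and 2-oxoglutarate. The data are mRNA levels. They hold no measurement of protein, enzyme activity or of the marks themselves.

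Of the 71 genes, 62 were tested and 9 were below the filter. With GSK101, 19 of the 62 were higher (30.6%) and 5 were lower (8.06%), where 20.1% of all tested genes were higher and 11.9% were lower. Together 24 of the 62 were called, against 31.9% of all tested genes, and the remaining 38 passed the threshold in neither direction. The median log2 fold change was 0.09 over the 62 genes and 0.03 over all tested genes, and the median size of the change, regardless of sign, was 0.14 against 0.16. Among the calls, the ratios of group means ran from 1.84-fold higher (Kdm7a) to 1.44-fold lower (Sirt3). The control levels were modest, with a median mean RPKM of 5.40 against 6.40 for all tested genes, and 57 of the 62 genes had a mean RPKM over the 6 libraries between 1 and 20. In 34 of the 62 genes the groups did not overlap, against 47.3% of all tested genes, and the 34 include all 24 called genes. Of the 24 calls, 15 were kept in all 18 alternative treatments of the data: those of Dnmt1, Uhrf1, Ezh2, Kmt2a, Kmt2e, Setd1a, Setd2, Kmt5a, Kdm7a, Kat6a, Hdac4 and Sirt1, which were higher, and of Sirt2, Sirt3 and Sirt6, which were lower.

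**Figure D1:**
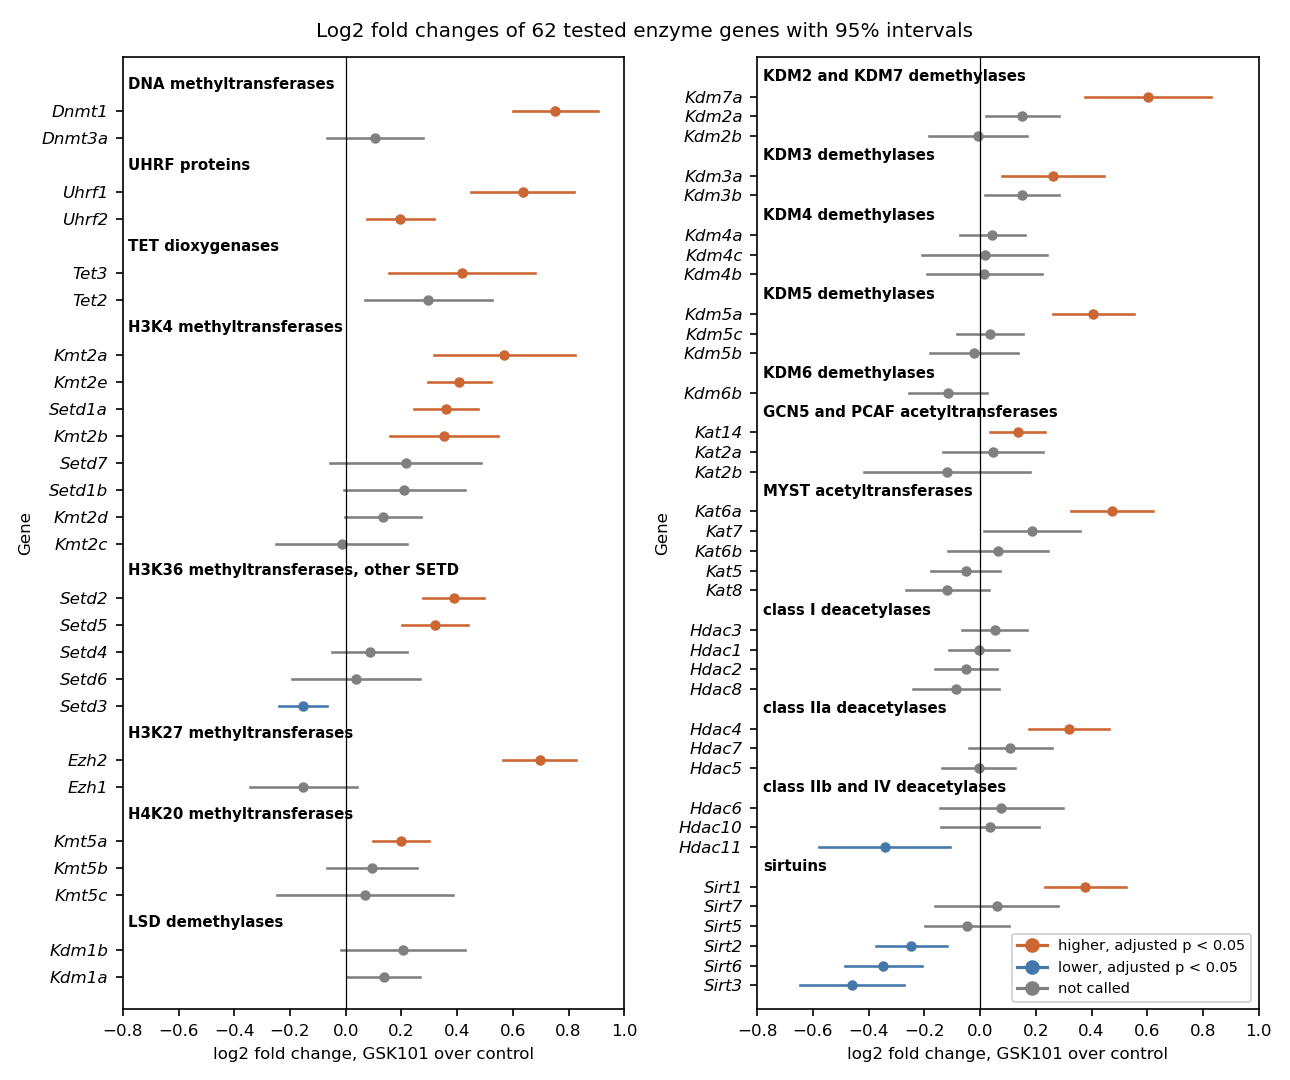
The log2 fold change of each of the 62 tested enzyme genes (horizontal axis, GSK101 over control, on log2(RPKM + 0.5)) with its 95% interval, grouped by enzyme role; n = 3 libraries per group. The 19 genes higher with GSK101 are spread over the methylation, demethylation, acetylation and deacetylation groups, and 3 of the 5 lower genes are sirtuins.

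The higher genes Dnmt1, Uhrf1 and Ezh2 encode enzymes or cofactors that restore DNA or histone methylation after DNA replication, and Kmt5a encodes the enzyme that sets histone H4 lysine 20 monomethylation in dividing cells. Their promoters are shown because these 4 genes were called together with the replication genes described further on, and because genes of this kind are textbook targets of E2F factors. RefSeq promoter sequences (build GRCr8, 250 bases before to 50 bases after the transcription start, 5′ to 3′ along the gene's strand) were matched by symbol for 58 of the 71 genes. Capitals mark CCAAT boxes (CCAAT, or ATTGG where the match is on the other strand) and E2F sites, searched on both strands as TTTCCCGC, TTTCGCGC, TTTGCCGC and TTTGGCGC. For Uhrf1, RefSeq lists 3 starts, and the one shown was picked after the sequences were seen because it holds the E2F matches, of which the other two starts have none. The windows lie at chr8:27762792-27763091 on the minus strand (Dnmt1), chr9:1222936-1223235 on the plus strand (Uhrf1), chr4:77687134-77687433 on the minus strand (Ezh2) and chr12:37817977-37818276 on the minus strand (Kmt5a).
Dnmt1: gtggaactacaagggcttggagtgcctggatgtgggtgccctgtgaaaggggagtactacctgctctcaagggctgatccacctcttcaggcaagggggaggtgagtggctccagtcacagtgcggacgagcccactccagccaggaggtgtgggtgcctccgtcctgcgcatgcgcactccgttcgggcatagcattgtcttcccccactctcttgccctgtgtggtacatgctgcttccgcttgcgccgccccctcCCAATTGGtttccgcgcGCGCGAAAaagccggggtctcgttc
Uhrf1: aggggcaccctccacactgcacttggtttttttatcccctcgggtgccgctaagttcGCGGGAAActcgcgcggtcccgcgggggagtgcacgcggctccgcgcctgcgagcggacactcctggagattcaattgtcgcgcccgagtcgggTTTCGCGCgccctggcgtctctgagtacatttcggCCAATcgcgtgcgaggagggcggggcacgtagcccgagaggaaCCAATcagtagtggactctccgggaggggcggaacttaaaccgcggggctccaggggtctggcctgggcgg
Ezh2: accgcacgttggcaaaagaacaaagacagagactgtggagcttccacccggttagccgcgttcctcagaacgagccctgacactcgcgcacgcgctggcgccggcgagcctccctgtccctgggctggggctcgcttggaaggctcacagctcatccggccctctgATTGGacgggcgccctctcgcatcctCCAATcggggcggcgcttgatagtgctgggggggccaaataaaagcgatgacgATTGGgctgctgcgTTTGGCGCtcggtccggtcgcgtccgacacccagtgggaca
Kmt5a: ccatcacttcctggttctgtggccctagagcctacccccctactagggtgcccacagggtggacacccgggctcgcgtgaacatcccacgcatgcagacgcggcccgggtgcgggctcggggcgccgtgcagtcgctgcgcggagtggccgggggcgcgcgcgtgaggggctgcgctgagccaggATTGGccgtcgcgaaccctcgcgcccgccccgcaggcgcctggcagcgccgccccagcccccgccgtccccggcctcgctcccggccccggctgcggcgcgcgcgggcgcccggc

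The Dnmt1 window holds 1 E2F match, TTTCGCGC on the minus strand, beginning at base 26 after the start, and next to it a CCAAT box and its reverse complement that overlap by 2 bases. The Uhrf1 window holds 2 E2F matches, at positions -193 and -99 from the start, and the Ezh2 window holds 1, TTTGGCGC, at base 10 after the start. The Kmt5a window holds no match to these letters and 1 CCAAT box in reverse. Counted over genes, with a match at any of a gene's listed starts, an E2F match was present in 2.37% of all 27457 rat genes with a promoter and in 4.47% of the 8489 tested ones. It was present in 3 of the 15 higher enzyme genes with a promoter (Uhrf1 by the start shown, 1 of its 3), in 3 of the 34 that passed in neither direction and in 0 of the 3 lower ones. A CCAAT box was present in 39.3% of the tested genes, in 9 of the 15 higher enzyme genes, in 16 of the 34 and in 3 of the 3. GC boxes (GGGCGG) were present in 66.1% of the tested genes, in 12 of the 15 higher enzyme genes, in 27 of the 34 that passed in neither direction and in 2 of the 3 lower ones. Over all 52 tested enzyme genes with a promoter, 6 had an E2F match. The promoters of tested genes were richer in CpG than those of all genes, with medians of 22 and 8 CpG per window. The median was 30 in the higher enzyme genes and 23.5 in those that passed in neither direction. The part of CpG content in these counts was not tested, and the matches are descriptions of letters in a window of 300 bases.

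The DNA methylation genes contributed 4 of the 19 higher genes out of 6 tested, where 20.1% of all tested genes were higher. Dnmt1, the maintenance methyltransferase, had RPKM values of 15.4, 13.5 and 13.5 in the control libraries and 25.2, 24.3 and 22.8 with GSK101. All 3 GSK101 libraries lay far above all controls, and the difference between group means was 1.71-fold (14.1 ± 1.08 against 24.1 ± 1.21, SD, n = 3; log2 fold change 0.75, SE 0.07, limma adjusted p = 0.000275). It was the largest log2 increase among the 62 genes. Dnmt3a, a methyltransferase that sets new methylation, had 3.005, 2.598 and 2.908 in controls and 3.10, 3.05 and 3.11 with GSK101, with a log2 fold change of 0.11 (95% interval -0.07 to 0.28, limma adjusted p = 0.316). The Dnmt3a groups did not overlap, but the gene did not pass. The ratio of Dnmt1 to Dnmt3a within a library went from 4.98 ± 0.297 to 7.80 ± 0.414 (SD, n = 3). A single scaling factor per library cannot move such a ratio, but a correction that differs between genes, such as for length, can. The groups did not overlap in this ratio; the pair was picked with the values known, and no test is given. Dnmt3b, the other de novo enzyme, was below the filter at 0.173 to 0.268 in controls and 0.181 to 0.275 with GSK101.

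Uhrf1, the reader of hemimethylated DNA, had 6.51, 6.52 and 5.52 in controls and 9.90, 10.4 and 9.23 with GSK101. The groups were well apart, at a 1.60-fold difference (log2 fold change 0.63, SE 0.08, limma adjusted p = 0.00111). Its relative Uhrf2 had 12.4, 13.2 and 12.3 in controls and 15.02, 14.62 and 14.004 with GSK101, a 1.15-fold difference without overlap (log2 fold change 0.20, SE 0.05, limma adjusted p = 0.0241). The Uhrf2 call was lost in 6 of the 18 alternatives, among them 4 that each left out 1 library (without control replicate 1 or 3, or GSK101 replicate 1 or 2). Uhrf2 was thus the more abundant of the pair in each of the 6 libraries, and the ratio of Uhrf1 to Uhrf2 went from 0.489 ± 0.0373 to 0.678 ± 0.0322.

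On the oxidising side, Tet3 had 1.07, 0.850 and 1.17 in controls and 1.70, 1.45 and 1.46 with GSK101, which is 1.50-fold higher without overlap (log2 fold change 0.42, SE 0.11, limma adjusted p = 0.0251). Its call was lost in 5 alternatives, including those without control replicate 2 and without GSK101 replicate 1 or 2. Tet2 had 1.03, 0.964 and 1.05 in controls and 1.46, 1.20 and 1.44 with GSK101. The Tet2 groups also did not overlap, but the adjusted p missed the threshold (log2 fold change 0.30, limma adjusted p = 0.0532) and passed it in 5 of 18 alternatives. Tet1 was below the filter, between 0.104 and 0.126 in all 6 libraries.

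**Figure D2:**
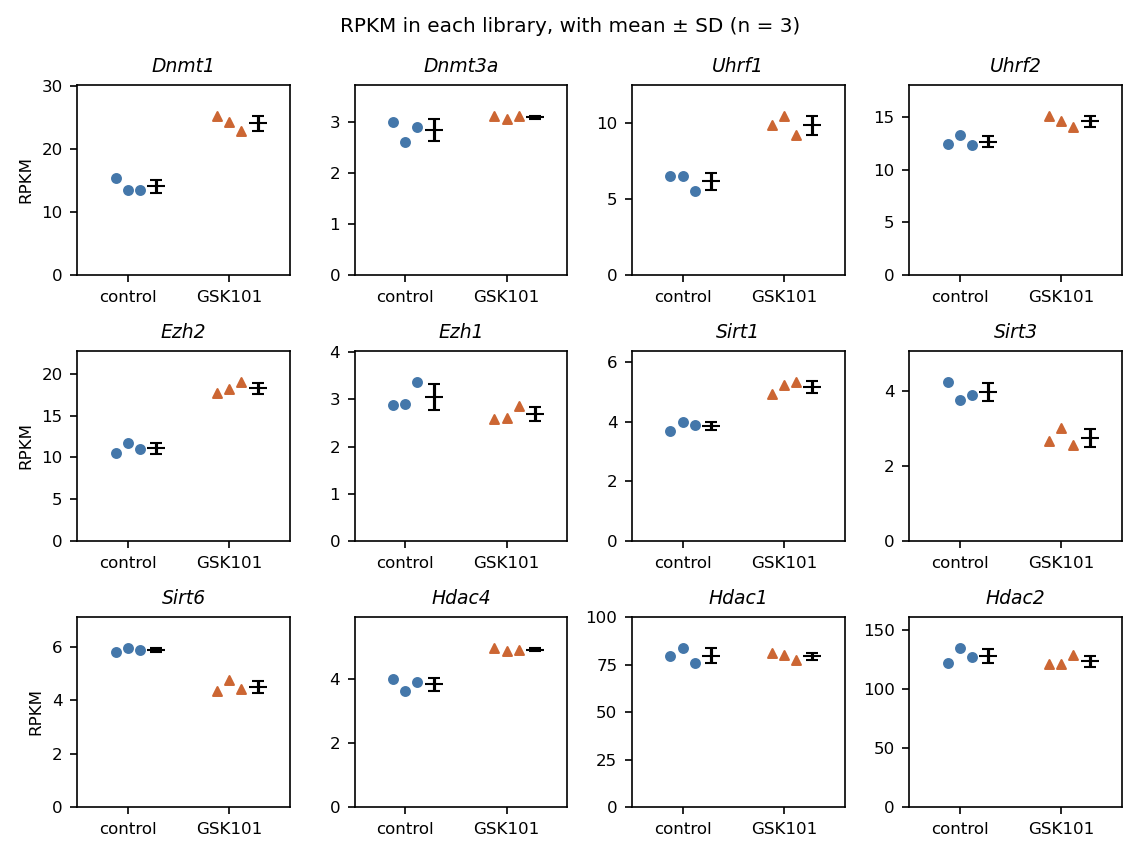
RPKM in each library (vertical axes start at 0) for selected enzyme genes, with the DMSO control and GSK101 libraries as points and the mean ± SD of 3 libraries beside them. Dnmt1, Uhrf1 and Ezh2 lie higher in every GSK101 library than in any control, Sirt3 and Sirt6 lie lower in every GSK101 library, and each panel has its own range.

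Genes grouped by symbol as histone lysine methyltransferases were the largest group, with 8 of 18 tested genes higher and 1 lower. Among all tested genes 20.1% were higher and 11.9% lower. The group holds genes whose proteins have another known or a debated activity, named below. Ezh2, the catalytic subunit of Polycomb repressive complex 2 (PRC2), which methylates H3 lysine 27, had 10.48, 11.74 and 11.02 in controls and 17.6, 18.1 and 19.0 with GSK101. The gap between the groups was several times the spread within them, at a 1.65-fold difference (11.1 ± 0.632 against 18.2 ± 0.669, SD, n = 3; log2 fold change 0.70, SE 0.06, limma adjusted p = 0.000224). Ezh1, its less active paralogue, known mainly from non-dividing tissues, had 2.88, 2.90 and 3.36 in controls and 2.58, 2.62 and 2.87 with GSK101, with a log2 fold change of -0.15 (95% interval -0.34 to 0.04, limma adjusted p = 0.2). The Ezh1 groups narrowly did not overlap, but the gene did not pass. The Ezh2 to Ezh1 ratio within a library went from 3.65 ± 0.381 to 6.79 ± 0.163, without overlap. In the annotation of the deposited table (Rnor_6.0), Ezh2 spans chr4:77284404-77347011, Dnmt1 chr8:21922515-21968495 and Uhrf1 chr9:10738222-10757954, all on the minus strand.

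Among the genes grouped as H3 lysine 4 methyltransferases 4 of 8 were higher and none was lower, against 20.1% and 11.9% of all tested genes. Kmt2a, the enzyme known as MLL1, had 1.45, 1.04 and 1.39 in controls and 2.18, 2.17 and 2.09 with GSK101, a 1.66-fold difference (log2 fold change 0.57, SE 0.11, limma adjusted p = 0.00642). Kmt2e, a family member that binds methylated H3 lysine 4 and has little or no methyltransferase activity of its own, had 9.80, 9.23 and 9.31 in controls and 12.9, 12.7 and 12.5 with GSK101 (1.34-fold, log2 fold change 0.41, SE 0.05, limma adjusted p = 0.000932). Setd1a, the catalytic subunit of a COMPASS complex, had 7.61, 7.65 and 7.28 against 9.68, 9.89 and 9.77 (1.30-fold, log2 fold change 0.36, SE 0.05, limma adjusted p = 0.00166). In all 3 genes the lowest GSK101 library lay above the highest control. Kmt2b (MLL2) had 2.10, 1.74 and 1.98 in controls and 2.66, 2.59 and 2.58 with GSK101 (1.35-fold, log2 fold change 0.35, limma adjusted p = 0.0149), and its call was lost without GSK101 replicate 1. Setd1b, Setd7 and Kmt2d had log2 fold changes of 0.21, 0.22 and 0.13 and did not pass. Kmt2c had a log2 fold change of -0.01, but its entry holds 8 exons with 1029 bases on chromosome 4, far less than a full gene of this family, so the value speaks for that short model alone.

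Setd2, the enzyme that sets H3 lysine 36 trimethylation, had 10.96, 10.62 and 11.2 in controls and 14.59, 14.69 and 14.05 with GSK101. This 1.32-fold difference was several times the spread within either group (log2 fold change 0.39, SE 0.05, limma adjusted p = 0.00105). Setd5, a SET-domain protein whose catalytic activity is debated, had 15.9, 14.7 and 15.9 in controls and 20.1, 19.1 and 19.2 with GSK101 (1.26-fold, log2 fold change 0.32, SE 0.05, limma adjusted p = 0.00291). Setd3 was the 1 methyltransferase gene that was lower, and its protein is known as the histidine methyltransferase of actin. It had 109.6, 116 and 112 in controls and 101, 101 and 101 with GSK101, a small 1.11-fold drop (log2 fold change -0.15, SE 0.04, limma adjusted p = 0.0171) that was lost in 5 alternatives, among them those without control replicate 2 and without GSK101 replicate 1 or 2. Setd4 and Setd6 had log2 fold changes of 0.09 and 0.04 and did not pass.

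Kmt5a was the most abundant of the 62 genes, with 329, 308 and 304 RPKM in controls and 362, 364 and 353 with GSK101. The groups did not overlap, at a 1.15-fold difference (log2 fold change 0.20, SE 0.04, limma adjusted p = 0.0114). Its entry, at chr12:37559770-37574750 on the minus strand (Rnor_6.0), has an exon length of only 969 bases, which enters the RPKM as the divisor. Kmt5b and Kmt5c, which add the further methyl groups at H4 lysine 20, had log2 fold changes of 0.09 and 0.07 and did not pass. Suv39h2, which trimethylates H3 lysine 9, was below the filter, with 0.244, 0.249 and 0.165 in controls and 0.343, 0.427 and 0.249 with GSK101. The Suv39h2 groups overlapped at their edges, at 0.249 (exact two-sided permutation p = 0.2, where 0.1 is the smallest that 3 against 3 allows). Suv39h1 was not analysed here.

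Of the lysine demethylases 3 of 14 tested genes were higher, close to the 20.1% of all tested genes, and none was lower (11.9% of all tested genes). Kdm7a, a Jumonji enzyme for H3 lysines 9 and 27, had 0.706, 0.803 and 0.895 in controls and 1.48, 1.46 and 1.47 with GSK101. The level was low in both groups, yet all GSK101 libraries exceeded all controls, and the 1.84-fold difference was the largest ratio of all 62 genes (log2 fold change 0.60, SE 0.10, limma adjusted p = 0.00322). Kdm5a, an eraser of H3 lysine 4 methylation, had 4.80, 5.02 and 5.29 in controls and 6.51, 7.08 and 6.92 with GSK101 (1.36-fold, log2 fold change 0.41, SE 0.06, limma adjusted p = 0.00257). Its relatives Kdm5b and Kdm5c, at log2 fold changes of -0.02 and 0.03, did not pass, and the ratio of Kdm5a to Kdm5b went from 1.24 ± 0.109 to 1.71 ± 0.0704. Kdm3a, an H3 lysine 9 demethylase that is a known hypoxia-responsive gene, had 3.855, 4.417 and 4.004 in controls and 5.16, 4.58 and 5.28 with GSK101 (1.22-fold, log2 fold change 0.26, limma adjusted p = 0.0375). The gap between the highest Kdm3a control and the lowest GSK101 library was narrow, and the call was lost in 9 alternatives, including the omission of control replicate 1 or 3 or of GSK101 replicate 1 or 3.

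The other 11 tested demethylases had log2 fold changes from -0.12 (Kdm6b, the H3 lysine 27 demethylase JMJD3, limma adjusted p = 0.187) to 0.21 (Kdm1b, limma adjusted p = 0.143). Kdm8, outside the chosen symbols, had a log2 fold change of 0.29. Kdm1a (LSD1) stood at 0.14 and Kdm4a, the most abundant of the demethylases at 13.9, 13.7 and 13.2 in controls and 13.8, 13.6 and 14.6 with GSK101, stood at 0.04. The Kdm4a groups overlapped. Kdm1a had 12.07, 10.7 and 11.5 in controls and 12.5, 12.9 and 12.4 with GSK101, Kdm3b had 7.08, 6.51 and 7.16 against 7.83, 7.79 and 7.57, and Kdm6b had 5.92, 5.804 and 5.63 against 5.57, 5.31 and 5.04. In these 3 genes the groups did not overlap, nor did they in Kdm2a (log2 fold change 0.15), but none of these genes passed. Kdm4d, Kdm4e and Kdm5d had at most 8 reads in a library. The entry named Kdm6a in the table lies on chromosome Y, with at most 2 reads in any library, so no level of the X-linked gene of that name is given.

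**Figure D3:**
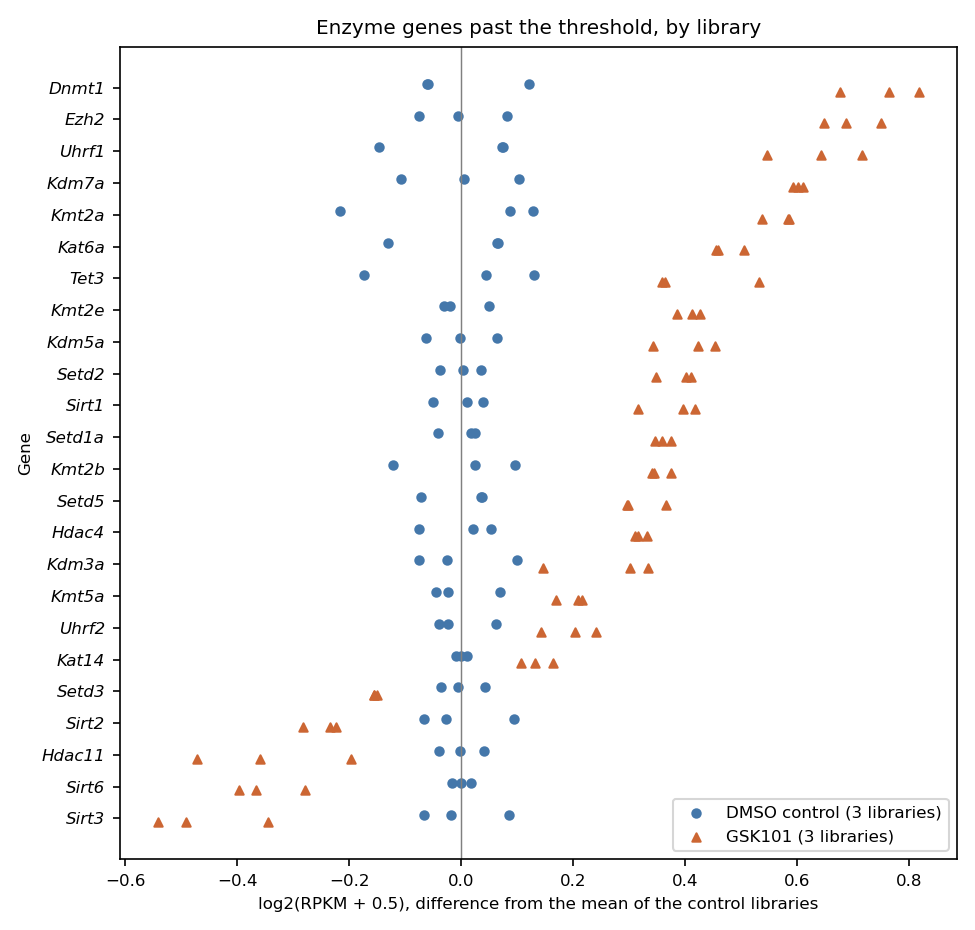
For each of the 24 enzyme genes past the threshold, log2(RPKM + 0.5) of each library is plotted as the difference from the mean of the 3 control libraries (horizontal axis); circles are DMSO control and triangles GSK101 libraries. In each of the 24 genes the triangles lie on 1 side of the circles, and the gap is narrow in Kdm3a and Uhrf2.

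Of the 8 lysine acetyltransferases 2 were higher, near the 20.1% of all tested genes, and none was lower (11.9% of all tested genes). Kat6a (MOZ), of the MYST family, had 15.3, 13.3 and 15.3 in controls and 20.2, 20.3 and 21.0 with GSK101. The lowest GSK101 library lay well above the highest control (1.40-fold, log2 fold change 0.47, SE 0.06, limma adjusted p = 0.00145). Its close paralogue Kat6b had a log2 fold change of 0.06 (limma adjusted p = 0.571), and the ratio of Kat6a to Kat6b went from 3.98 ± 0.214 to 5.31 ± 0.351. Kat14, a subunit of the ATAC acetyltransferase complex, had 16.6, 16.7 and 16.9 in controls and 18.4, 18.1 and 18.8 with GSK101. The 1.10-fold difference passed narrowly (log2 fold change 0.13, SE 0.04, limma adjusted p = 0.0442) and was lost in 12 of 18 alternatives, among them the omission of any single library. Kat2a (GCN5), Kat2b (PCAF), Kat5 (TIP60), Kat7 (HBO1) and Kat8 (MOF) had log2 fold changes between -0.12 and 0.19 and did not pass. The annotated exons of Kat8, Kat5 and Kat7 overlap those of a gene on the opposite strand, by 190, 30 and 29 bases.

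Of the zinc-dependent deacetylases 1 of 10 tested was higher and 1 was lower, against 20.1% and 11.9% of all tested genes. The other 8 passed in neither direction. Hdac1 and Hdac2, the catalytic pair of the Sin3, NuRD and CoREST repressor complexes, were the most abundant of them. Hdac1 had 79.7, 83.5 and 75.8 in controls and 80.9, 80.2 and 77.4 with GSK101, and Hdac2 had 122.7, 135 and 128 against 121, 121 and 129. Both pairs of groups overlapped, with log2 fold changes of -0.00 (95% interval -0.11 to 0.11) and -0.05 (-0.16 to 0.06). Hdac3 and Hdac8 had log2 fold changes of 0.05 and -0.09.

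The class IIa enzymes shuttle between nucleus and cytoplasm under calcium-dependent kinases. Hdac4 of this class had 4.001, 3.619 and 3.902 in controls and 4.96, 4.88 and 4.90 with GSK101, 1.28-fold higher without overlap (log2 fold change 0.32, SE 0.06, limma adjusted p = 0.00699). Hdac5, the most abundant class IIa gene, had 26.9, 27.3 and 26.7 against 27.93, 27.999 and 24.78, with overlap and a log2 fold change of -0.01. Hdac7 stood at 0.11 and did not pass, and Hdac9 was below the filter. Hdac11, the single class IV enzyme, had 1.50, 1.61 and 1.55 in controls and 1.10, 1.29 and 0.980 with GSK101. It was 1.38-fold lower without overlap (log2 fold change -0.34, SE 0.10, limma adjusted p = 0.0356), and the call was lost in 8 alternatives, among them all single-library omissions except that of GSK101 replicate 2. The mainly cytoplasmic Hdac6 and Hdac10 had log2 fold changes of 0.08 and 0.03.

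Of the sirtuins, the NAD+-dependent deacylases, 3 of 6 tested were lower and 1 was higher, against 11.9% and 20.1% of all tested genes. Sirt1, a nuclear deacetylase of histones and transcription factors, had 3.70, 3.97 and 3.88 in controls and 4.92, 5.23 and 5.31 with GSK101. It was 1.34-fold higher, and its groups did not overlap (log2 fold change 0.38, SE 0.06, limma adjusted p = 0.00354). Sirt3, the main deacetylase of mitochondria, had 4.24, 3.77 and 3.91 in controls and 2.68, 3.02 and 2.57 with GSK101. This was the largest fall among the 62 genes, 1.44-fold (log2 fold change -0.46, SE 0.08, limma adjusted p = 0.00444).

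Sirt6, a nuclear deacetylase of H3 lysine 9 linked to DNA repair and telomeres, had 5.80, 5.95 and 5.87 in controls and 4.34, 4.76 and 4.45 with GSK101 (1.30-fold lower, log2 fold change -0.35, SE 0.06, limma adjusted p = 0.00404). Sirt2, which acts largely in the cytoplasm, tubulin included, had 18.9, 17.3 and 16.9 in controls and 15.08, 14.45 and 14.97 with GSK101 (1.19-fold lower, log2 fold change -0.25, SE 0.06, limma adjusted p = 0.0121). Neither gene's groups overlapped. The ratio of Sirt1 to Sirt3 within a library went from 0.973 ± 0.0921 to 1.88 ± 0.171, and that of Sirt1 to Sirt6 from 0.655 ± 0.0156 to 1.14 ± 0.0483. Sirt1 was thus below Sirt6 in all 3 control libraries and above it in all 3 GSK101 libraries. Sirt5 and Sirt7 had log2 fold changes of -0.05 and 0.06, and Sirt4 was below the filter.

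Gene length moved with these calls. The higher enzyme genes had a median exon length of 5917 bases and the lower ones of 1791, against 3337 for those that passed in neither direction and 2137 for all tested genes. The 12801 tested genes were split by length into 4 classes of near-equal size, and in the longest class (3419 bases and more) 31.6% were higher and 6.97% lower, against 12.2% and 13.2% in the shortest. The enzyme genes were long: 33 of the 62 fell in the longest class, of which 15 were higher and 0 lower. Only 2 fell in the shortest class, 1 of them higher (Kmt5a). Across the 62 genes, which share the same 6 libraries, log2 fold change and log2 length had a Pearson r of 0.49 and a Spearman rho of 0.53, against 0.07 and 0.18 across all tested genes.

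With the trend on length of each library's log2 deviations from the gene means removed, 12 of the 62 enzyme genes were higher and 8 lower, where 14.7% of all tested genes were then higher and 16.7% lower. The 12 were all among the 19; Kdm5a, Setd5, Kmt2b, Tet3, Uhrf2, Kdm3a and Kat14 no longer passed. All 5 lower genes kept their call, and Ezh1, Kdm6b and Kmt2d joined them. The Kmt2d value turned from 0.13 to -0.20 (limma adjusted p = 0.0427). The share of enzyme-gene calls that were higher was 79.2% as deposited, 87.0% with TPM scaling, 77.3% with median-ratio scaling, 72.7% with quantile normalization and 60% with the length trend removed. For all tested genes these shares were 62.9%, 72.4%, 52.7%, 48.1% and 46.8%.

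**Figure D4:**
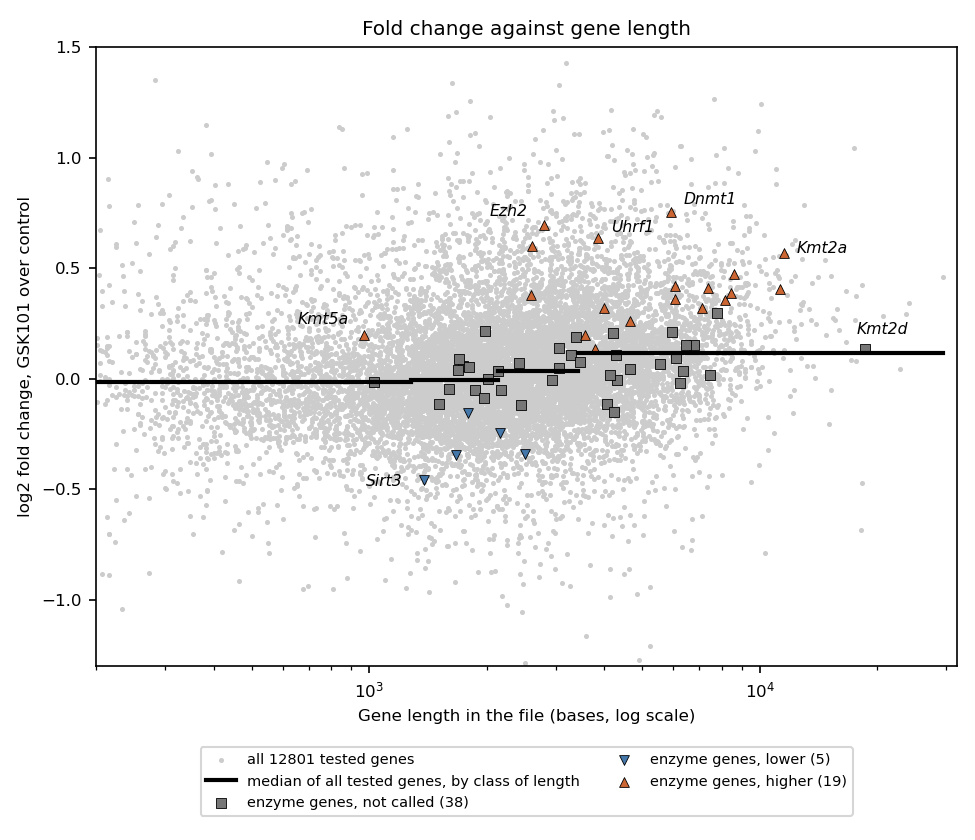
Log2 fold change (vertical axis, GSK101 over control) against gene length in bases (horizontal axis, log scale) for all 12801 tested genes in grey, with 602 of them outside the axis limits, and for the 62 enzyme genes as larger marks. The black bars, the medians of all tested genes by class of length, go from -0.02 in the shortest to 0.12 in the longest class, and the 5 lower enzyme genes all lie between 1383 and 2511 bases.

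The partner subunits, readers and cofactor enzymes were read from lists of textbook members. Their counts stand beside 20.1% higher and 11.9% lower among all tested genes. In the longest class of length these shares were 31.6% and 6.97%. The list counts were not adjusted for length, and its part in them was not tested. PRC2 partners moved with Ezh2: of 10 tested core and accessory genes 7 were higher and none lower, with a median log2 fold change of 0.31. Suz12, a core subunit, went from 8.97 ± 0.806 to 13.7 ± 0.573 (1.53-fold, limma adjusted p = 0.000962), and the accessory subunits Mtf2 and Phf19 were 1.45-fold and 1.89-fold higher (limma adjusted p = 0.00194 and 0.00240). Of 17 genes of Polycomb repressive complex 1, 3 were higher, namely Bmi1, Pcgf6 and Phc3, close to the share of all tested genes. The median over the list was -0.04. Cofactors of the H3 lysine 4 methyltransferases and genes listed with them, such as Bptf, had 7 of 15 higher and none lower. Among these Psip1 went from 62.7 ± 4.05 to 97.7 ± 5.06 (1.56-fold, limma adjusted p = 0.000364), and Bptf and Bod1l1 were 1.36-fold and 1.31-fold higher. Ash2l was also higher (log2 fold change 0.20), while Wdr5, Rbbp5, Dpy30 and Men1 did not pass (0.11, 0.15, 0.01 and -0.18).

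Enzymes outside the chosen symbols gave 7 of 15 other lysine methyltransferases higher and none lower, among them the H3 lysine 36 enzymes Nsd1 (1.44-fold), Whsc1 (1.46-fold) and Whsc1l1 (1.26-fold). All 7 had a length of 4820 bases or more, which places them in the longest class. Other acetyltransferases had 7 of 11 higher and none lower. Hat1, which acetylates newly made histone H4, went from 24.1 ± 1.29 to 38.3 ± 2.07 (1.59-fold, limma adjusted p = 0.000281), and Taf1 and Ncoa2 were 1.56-fold and 1.46-fold higher. Of 8 other Jumonji genes 1 was higher (Jmjd1c), and of 8 arginine methyltransferases 1 was lower (Prmt2, 1.14-fold, limma adjusted p = 0.0497). Subunits of acetyltransferase complexes had 7 of 37 higher, among them Jade1, Jade2 and Ing5, close to the 20.1% of all tested genes. Subunits of deacetylase complexes had 11 of 28 higher, including Arid4a and Arid4b, and 2 lower, including Sin3b at 1.22-fold. Readers of acetyl-lysine, methyl-lysine and methyl-DNA had 9 of 15 higher and none lower, among them the heterochromatin proteins Cbx5 (1.38-fold) and Cbx3 (1.31-fold) and the bromodomain gene Brd9 (1.18-fold).

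Enzymes that finish DNA demethylation or repair the oxidised base had 4 of 11 higher and 2 lower. Neil3, a DNA glycosylase, went from 0.698 ± 0.141 to 1.58 ± 0.0408 (2.27-fold), while Gadd45b, a stress-induced gene, went from 58.9 ± 0.769 to 40.9 ± 2.09 (1.44-fold lower, limma adjusted p = 0.000296). The cofactor supply genes had 6 of 25 higher and 5 lower, where 20.1% of all tested genes were higher and 11.9% lower. Ahcy, which clears S-adenosylhomocysteine, was 1.23-fold higher (limma adjusted p = 0.00263), and its relative Ahcyl1 was 1.27-fold higher. Cd38, which breaks down NAD+, fell from 9.08, 8.94 and 8.13 in controls to 5.04, 5.58 and 4.55 with GSK101 (1.72-fold lower, limma adjusted p = 0.000721).

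**Figure D5:**
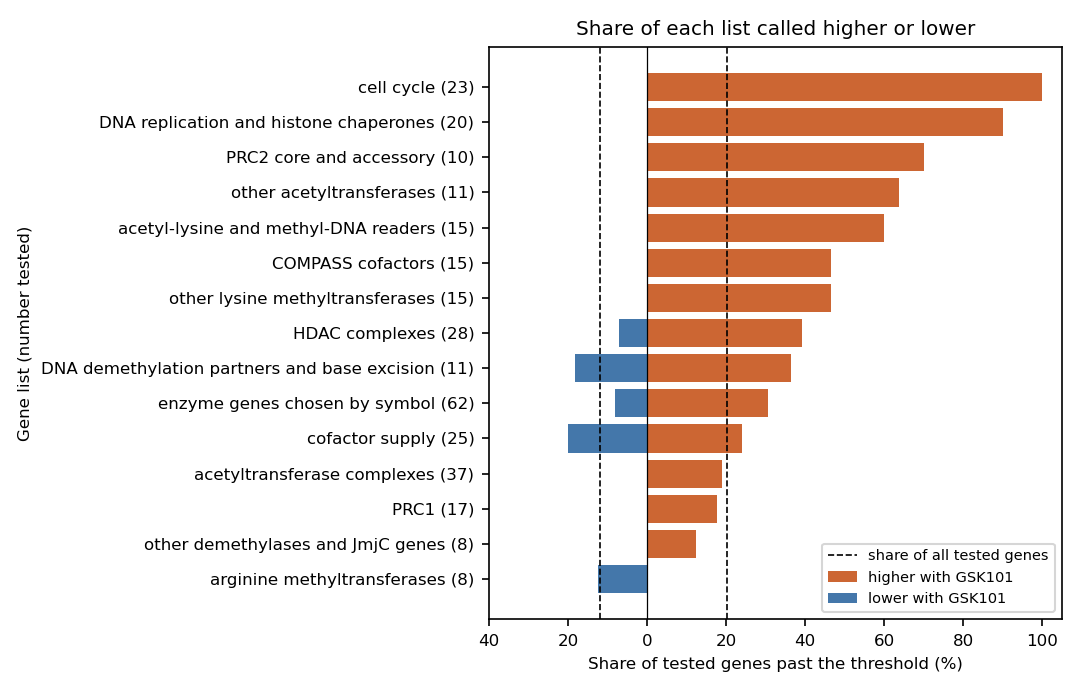
Share of the tested genes of each partner list that was called higher (to the right) or lower (to the left) with GSK101, in percent; dashed lines mark the 20.1% higher and 11.9% lower among all tested genes. The cell cycle list stands at 23 of 23 higher and the replication list at 18 of 20, and most enzyme partner lists hold no lower gene.

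Proliferation genes moved with the same libraries. All 23 tested cell cycle genes were higher, with a median log2 fold change of 0.80, and their summed RPKM was 468 to 500.3 in controls and 842 to 862 with GSK101. Of 20 DNA replication and histone chaperone genes 18 were higher, none lower, with a median log2 fold change of 0.54 and a summed level that was 1.50-fold higher. Set against that summed replication level, Uhrf1 stood at 17.0 ± 1.39 per 1000 in controls and 18.1 ± 1.17 with GSK101, and Ezh2 at 30.4 ± 1.67 and 33.5 ± 1.91. In both ratios the groups overlapped, which at 3 against 3 libraries does not show that the ratios were equal. Dnmt1 stood at 38.7 ± 2.84 and 44.1 ± 1.51 per 1000, without overlap, and Kmt5a fell from 862 ± 33.1 to 660 ± 15.3, also without overlap. These ratios are descriptions, and the part of cell proliferation in the enzyme genes' changes was not tested. In bulk libraries, fewer cells of a type and less RNA per cell cannot be told apart.

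The cells carried fibroblast markers in both groups, with a summed RPKM of 9 fibroblast and disc genes of 12244 to 13441 in controls and 11162 to 12616 with GSK101. Of these 4 were higher and 2 lower. Smooth muscle and pericyte markers were also abundant and 4 of 6 were lower, with summed levels of 5490 to 5705 against 3036 to 3317, led by Acta2 (1.81-fold lower). All 3 tested skeletal muscle genes were lower (14.7 to 16.005 against 8.85 to 9.47). Of the 3 cartilage markers tested, Prg4 was 2.84-fold higher and the other 2 passed in neither direction. The median log2 fold change of the 3 was -0.07, and Col2a1 was below the filter. Of the leukocyte markers 4 were tested and Cd14 was higher, with Ptprc, Csf1r and Cd3e below the filter. No epithelial marker was tested, and among endothelial markers Kdr alone was, 1.84-fold higher at a low level. The summed RPKM of 5 endothelial genes was 0.667 to 0.854 in controls and 1.10 to 1.32 with GSK101. The part of these markers in the enzyme genes' changes was not tested.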

How the data were processed

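Primary rat TMJ disc cells were profiled in 3 DMSO control and 3 GSK101 libraries. Per the labels' protocols, stranded libraries of polyadenylated RNA carried molecular identifiers of 8 random bases. The authors deposited 1 table of RPKM values with gene lengths and Rnor_6.0 exon coordinates. Tools in the submitters' processing notes, with no role given, are edgeR 3.12.1, STAR 2.5.3a, Subread 1.5.1, featureCounts and Trimmomatic 0.36. The sources used here do not give whether identifiers were collapsed, strand was used or multi-mapping reads were counted, so paralogue counts may be split or shared and opposite-strand overlaps may add reads.

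RPKM multiplied by length gave whole multiples of 1 step, within 0.01, for 100% of values; these recovered reads give the depth and limma-voom's input. All genes were fitted together on log2(RPKM + 0.5) by limma 3.58.1 under R 4.3.3, with a variance trend and no covariate, tested on simulated data first. Genes below the filter got exact permutation tests. Alternatives changed the pseudocount, filter, scaling, length trend, moderation, block and libraries used. The members, lists and tests were chosen with earlier results of these data known. Values in every library were given for called genes among the 14 largest increases and 8 largest decreases and for the most abundant gene of other roles. They were also given, after values were seen, for the remaining called genes and for relatives set beside a called gene, such as Dnmt3a, Tet2 and Ezh1. Of each partner list up to 3 genes with the smallest adjusted p were named. Other genes are given by role, and paralogue ratios were added after values were seen. Promoters are from RefSeq.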

Additional observations from a re-analysis of the deposited data

How the results depend on the processing

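The 18 alternatives gave 20 to 29 called enzyme genes when all 6 libraries were used, against 24, and 17 to 21 when 1 library was left out. Of all tested genes 31.9% were called in the main fit, and 22.7% to 28.5% when 1 library was left out. With limma-voom (29 enzyme genes) the share was 35.9%, and with the length trend removed (20 enzyme genes) it was 31.4%. The number higher moved by more than 1.5 times in 1 of them, to 12 with the length trend removed. The number lower, 5, became 3 with TPM scaling (where 8.73% of all genes were lower), 8 with the length trend removed and 3 to 4 when 1 library was left out (3 without control replicate 2 or GSK101 replicate 1). The median log2 fold change of the enzyme genes, 0.09, became 0.129 with TPM scaling, 0.0534 with median-ratio scaling, 0.0200 with quantile normalization, 0.0154 with the length trend removed and 0.0868 to 0.114 without 1 library. The median of all tested genes was 0.03, 0.07 with TPM scaling and -0.02 with quantile normalization or the length trend removed. Kmt2d turned from 0.13 to -0.20 with the length trend removed; at 18552 bases it was the longest of the genes not called. Limma-voom on the recovered reads called 24 enzyme genes higher and 5 lower (4590 of all genes), adding Kdm2a, Kdm3b, Kmt2d, Setd1b and Tet2.

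Replicates with the same number showed no clear shared deviation from their group means (correlations 0.0544, -0.0631 and 0.0519). Nor did every library correlate best with its own number. With small correlations and 3 libraries a group, this check cannot settle whether same-numbered libraries share an origin. With the replicate number as a block, 17 enzyme genes were higher and 4 lower (21 in all, losing Kat14, Kdm3a and Hdac11), and 2508 and 1437 of all genes. Having 3 libraries a group limits the precision.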
